A study of Clonorchis sinensis with 4 samples.

Results

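The Rfam miRNA precursor classes are the entries of the deposited small RNA tables in which a sequenced tag was filed under an Rfam RNA family of miRNA precursors instead of under a named miRNA. They were taken as every entry whose type is precursor, which gave 123 classes among 6855 distinct entries in all. Eggs listed 58 of them, metacercariae 70, adults 59 and vesicles 103. The libraries came from Clonorchis sinensis, the Chinese liver fluke, and were 1 each of eggs, metacercariae, adult worms and extracellular vesicles secreted by adults. Information on the strain, the host animals, the age and number of worms, and the isolation of vesicles was not given in the sources used here. Each group is 1 library without a replicate check. Groups were therefore not tested against each other, and each difference compares libraries and not conditions.

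A miRNA is cut from a hairpin precursor, loaded into an Argonaute protein, and guides it to mRNAs mainly through its seed, bases 2 to 8 from the 5′ end. Some miRNA families, such as let-7 and miR-124, are shared by nearly all animals with bilateral symmetry, others occur in vertebrates, and plant families have a separate origin. Adult liver flukes live in the bile ducts of mammals, beside bile duct epithelium, liver and blood, and metacercariae are cysts in freshwater fish. Rfam is a database of RNA families that gives 1 entry to the precursors of a family across species, so a class name carries a family but no species. The class name precursor says under which entry a tag was filed, and the length of the tags in a class is not analysed here.

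The sequences of the classes' tags are not in the tables used here. The authors' deposited sequences of known miRNAs from the families of 2 classes are shown, since the let-7 and mir-10 classes differed between libraries by far more than these known miRNAs did. Both are written 5′ to 3′ in DNA letters with the seed in capitals.
let-7-5p: gGAGGTAGttcgttgtgtggt
miR-10-5p: aACCCTGTagacccgagtttgg
They are 21 and 22 bases long and held 9024 and 10844 tags in vesicles as known miRNAs, apart from the precursor classes.

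The depth was 20.5 M annotated tags for eggs, 20.5 M for metacercariae, 19.4 M for adults and 2.36 M for vesicles (M, 1000000 tags), so the vesicle library was the shallowest. Values are tags per 1000000 annotated tags (CPM). A class with no tag was given a floor of 3 tags, which is 0.146 CPM in eggs, 0.146 in metacercariae, 0.155 in adult worms and 1.27 in vesicles. Ratios given as at least use these floors, and the exact intervals can begin below them. Intervals are exact 95% intervals and, like the floors, cover counting error alone, because each group is 1 library. Tags carry no molecular identifiers, so repeat copies of a molecule cannot be removed and the intervals may be too narrow even for counting error. Whether the vesicle table was annotated in the same run as the stage tables was not given in the sources used here, and the part of annotation in differences of vesicles from stages was not tested.

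Precursor classes took 3372 CPM of the egg library (3347 to 3397), 32025 of the metacercaria library (31948 to 32103), 1195 of the adult library (1179 to 1210) and 29628 of the vesicle library (29409 to 29848). Metacercariae and vesicles were high and adults were lowest. Of the tags in precursor classes and known miRNAs together, the classes held 2.21% in eggs, 7.62% in metacercariae, 0.735% in adult worms and 19.7% in vesicles (19.5 to 19.8). The tags were concentrated in few classes in the stages and spread over more in vesicles. mir-124 alone held 86.6% of precursor tags in metacercariae and 36.5% in adults, mir-71 held 62.7% in eggs, and let-7 held 23.2% in vesicles. It took 4 classes to reach 90% of precursor tags in eggs, 2 in metacercariae, 6 in adult worms and 15 in vesicles.

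More classes were listed in vesicles although their library was the shallowest. The number expected at the vesicle library's depth was 39.1 in eggs, 45.7 in metacercariae and 37.5 in adults, against 103 in vesicles. 38 classes were listed in every library and 45 in every stage. 40 classes were listed in vesicles and in no stage, with 2179 tags, and 12 of these held at least 10 tags. Another 20 were listed in a stage and not in vesicles, 7 of them in every stage. In all, 77 of the 123 classes held at least 10 tags in some library, and the remaining 46 held fewer in every library. Over all known miRNAs and Rfam entries, 496 were listed in vesicles or adults, against 272 in eggs or adults. For the classes these numbers were 114 and 68, so the longer vesicle list was not particular to them. Entries listed in vesicles alone were not counted over all types.

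The classes were set in 4 groups by their family names. The first group held 13 classes whose family number is also named among the known miRNAs of these tables. Another 26 were other animal families, 67 were vertebrate families and 17 were plant families, assigned from general knowledge of where each family occurs. Families not placed in another group were counted as vertebrate. The placing of mir-22 and mir-216 as other animal and of mir-203 and mir-218 as vertebrate is uncertain. The known miRNAs of the tables fell in 25 named families, and 12 of these had no precursor class of the same family number in any library, among them bantam, miR-36, miR-277 and miR-190. miR-125 is also among the 12 by number, although Rfam files its precursors under lin-4, described below. The 13 shared families held 65.3% of precursor tags in eggs (64.9 to 65.6), 98.3% in metacercariae (98.3 to 98.3), 75.7% in adult worms (75.2 to 76.3) and 47.4% in vesicles (47.0 to 47.8). Vertebrate families held 4.13%, 0.380%, 7.22% and 31.0% in the same order, and plant families 29.0%, 0.013%, 6.86% and 0.121%. The remaining 26 animal families held 1.61%, 1.31%, 10.2% and 21.4%.

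**Figure D1:**
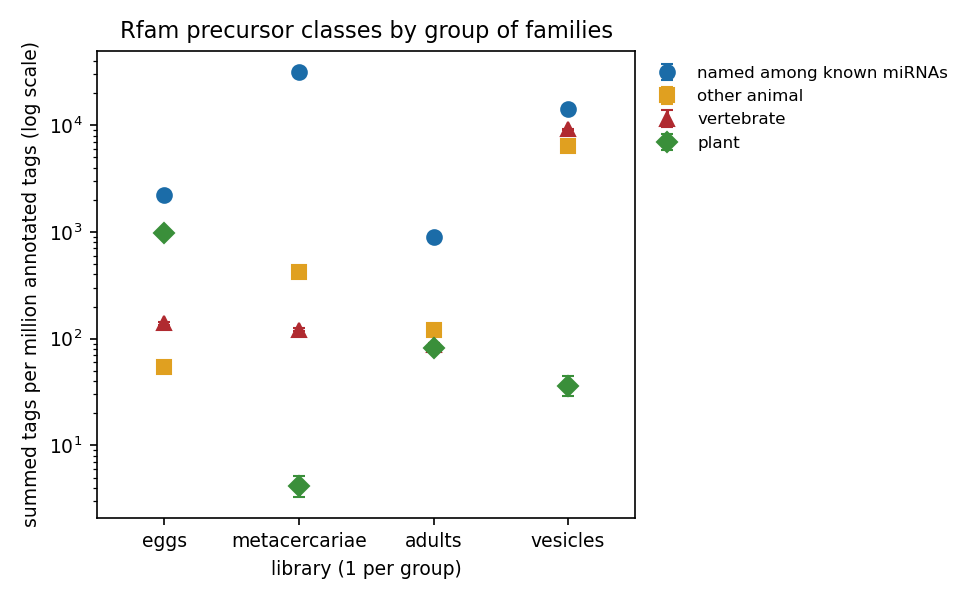
Summed tags per 1000000 annotated tags (log scale) of the precursor classes in each group of families, in 1 library per group, with exact 95% counting intervals that are mostly smaller than the symbols. Plant families were high in eggs at 977 CPM and vertebrate families in vesicles at 9186 CPM, while the families named among known miRNAs led in every library.

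The comparisons below used a rule of size in place of a test. A class was called higher or lower when its ratio was at least 4-fold with a pseudocount of 1 CPM added, at least 10 tags lay in the higher library, and the counting interval of the ratio lay beyond 2-fold. The same rule was applied to every known miRNA and every Rfam entry of any type, and the share of these called is the background. The classes themselves are part of it. Among entries called higher, they were 8 of 14 for eggs against adults and 12 of 28 for metacercariae against adults. For eggs against metacercariae they were 9 of 22 and for vesicles against adults 57 of 149. Ratios in the text are printed without the pseudocount. Counts of calls are also given with levels scaled to miRNA tags or to Rfam tags. Precursor tags are part of the Rfam tags, so scaling to these is no independent check of the classes. Since a pseudocount of 1 weighs less on either scale, the counts are repeated with the pseudocount held at its weight on the CPM scale. Comparisons with adults share the adult library, and the libraries of the other comparisons recur as well.

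Among the shared families, the timing miRNA let-7, which controls larval transitions in nematodes and differentiation in many animals, differed far more between libraries in its class than in its known entries. The class (RF00027) held 0 tags in eggs, 130 in metacercariae, 1 in adult worms and 16202 in vesicles, which is 0, 6.34, 0.0515 and 6862 CPM. Vesicles stood far above the other libraries, and eggs and adults were at or below their floors. Known let-7 entries held 3170, 12075, 10435 and 9027 tags, and the ratio of vesicles to adults was 7.11 (6.91 to 7.31) there against 133150 (23894 to 5259461) in the class. The class thus took 64.2% of let-7 tags in vesicles (63.6 to 64.8) and 1.07% in metacercariae. In eggs, where the class held 0 of 3170 let-7 tags, the share could reach 0.116%.

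The neuronal family mir-124 was the main class of metacercariae. It held 282 tags in eggs, 568259 in metacercariae, 8471 in adult worms and 0 in vesicles, or 13.7, 27732, 437 and 0 CPM. Metacercariae were highest by a wide margin, adults came next, and vesicles were under their floor. The class was 63.5-fold higher in metacercariae than in adults (62.2 to 64.9), close to the 74.2-fold (73.2 to 75.3) of the known miR-124 entries. Eggs and adults differed in another way. The class was 31.8-fold lower in eggs (28.2 to 35.9), while the known entries had a ratio of 1.61 (1.58 to 1.64), so that the class took 0.822% of miR-124 tags in eggs, 29.8% in adults and 26.7% in metacercariae. In vesicles the class was at least 344-fold lower than in adults, and the known entries held 8 tags.

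mir-7, a family of neural and sensory cells in flies, held 27, 3654, 15 and 1732 tags in eggs, metacercariae, adults and vesicles, or 1.31, 178, 0.773 and 733 CPM. Eggs and adults were low, and metacercariae and vesicles high. The class was 231-fold higher in metacercariae than in adults (140 to 413) and 949-fold higher in vesicles (574 to 1699), against ratios of 9.73 and 0.651 for the known miR-7 entries. mir-219, another neural family, was listed in vesicles alone, with 10 tags, while its known entries held 12821, 114756, 51025 and 8 tags. mir-96, a family of sensory cells in vertebrates, had 0, 0, 2 and 14 tags against 15291, 35354, 9645 and 685 known tags.

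The muscle family mir-1 held 2, 6941, 46 and 44 tags, or 0.0974, 339, 2.37 and 18.6 CPM. Metacercariae were highest, and the class was 143-fold above adults there (107 to 195) against 14.1-fold (14.0 to 14.2) for the known miR-1 entries. mir-133, the second muscle family, held 3, 474, 4 and 9 tags and was 112-fold higher in metacercariae than in adults (43.5 to 414), against 51.9-fold for the known entry. In eggs mir-1 was 3479-fold below metacercariae (963 to 28733), a ratio that rests on 2 egg tags.

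The Hox-linked family mir-10 (RF00104) held 42 tags in eggs, 37981 in metacercariae, 95 in adult worms and 4209 in vesicles, or 2.04, 1854, 4.90 and 1783 CPM. Metacercariae and vesicles had near-equal levels far above eggs and adults. The class was 379-fold higher in metacercariae than in adults (310 to 468) and 364-fold higher in vesicles (297 to 451). The known miR-10-5p entry, whose sequence is shown above, had ratios of 1.05 (1.04 to 1.06) and 0.633 (0.621 to 0.646) in these comparisons. Its class took 19.5% of miR-10 tags in metacercariae and 28.0% in vesicles, but 0.367% in eggs and 0.0675% in adults.

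mir-71, a family of invertebrates that is abundant in flatworms, held 43402, 24233, 8120 and 10503 tags, or 2113, 1183, 418 and 4448 CPM. It was present at a high level in every library, with vesicles highest and adults lowest. Eggs were 5.05-fold above adults (4.93 to 5.17) and vesicles 10.6-fold (10.3 to 10.9), although neither passed the rule when scaled to Rfam tags. The class stayed a small part of the family, at 3.31%, 1.08%, 1.07% and 4.76% of miR-71 tags. mir-2, encoded beside miR-71 in flatworms, held 24, 826, 39 and 0 tags against 426649, 1201547, 474460 and 304 known tags, so it took at most 0.0687% of miR-2 tags in a stage library.

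mir-8, the epithelial family that includes mir-141 and mir-200, was the most even of the abundant classes. It held 1251, 2486, 703 and 421 tags, or 60.9, 121, 36.2 and 178 CPM. The vesicle value was 4.92-fold that of adults (4.35 to 5.56), but its direction reversed when scaled to Rfam tags. The known miR-8-3p entry was scarce in eggs with 165 tags, so the class held 88.3% of the family's tags there (86.6 to 90.0), against 26.8% in metacercariae, 35.7% in adult worms and 74.4% in vesicles. The Rfam family joining mir-46, mir-47 and mir-281 held 10, 55, 14 and 22 tags, against 8862, 23927, 19913 and 14 known miR-281 tags. The mir-31 class held 182, 2, 49 and 11 tags. mir-31 was 90.8-fold higher in eggs than in metacercariae (24.8 to 755), with 2 tags in metacercariae, whereas the known miR-31-5p_1 entry had a ratio of 0.0841.

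Across the 13 families, levels of the class and of the known entries were compared by rank within each library. Spearman's rho was 0.155 in eggs, 0.594 in metacercariae, 0.324 in adult worms and 0.759 in vesicles. These values describe 13 families of the same library that share its depth. No interval was computed, so the low values of eggs and adults do not show a relation there.

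**Figure D2:**
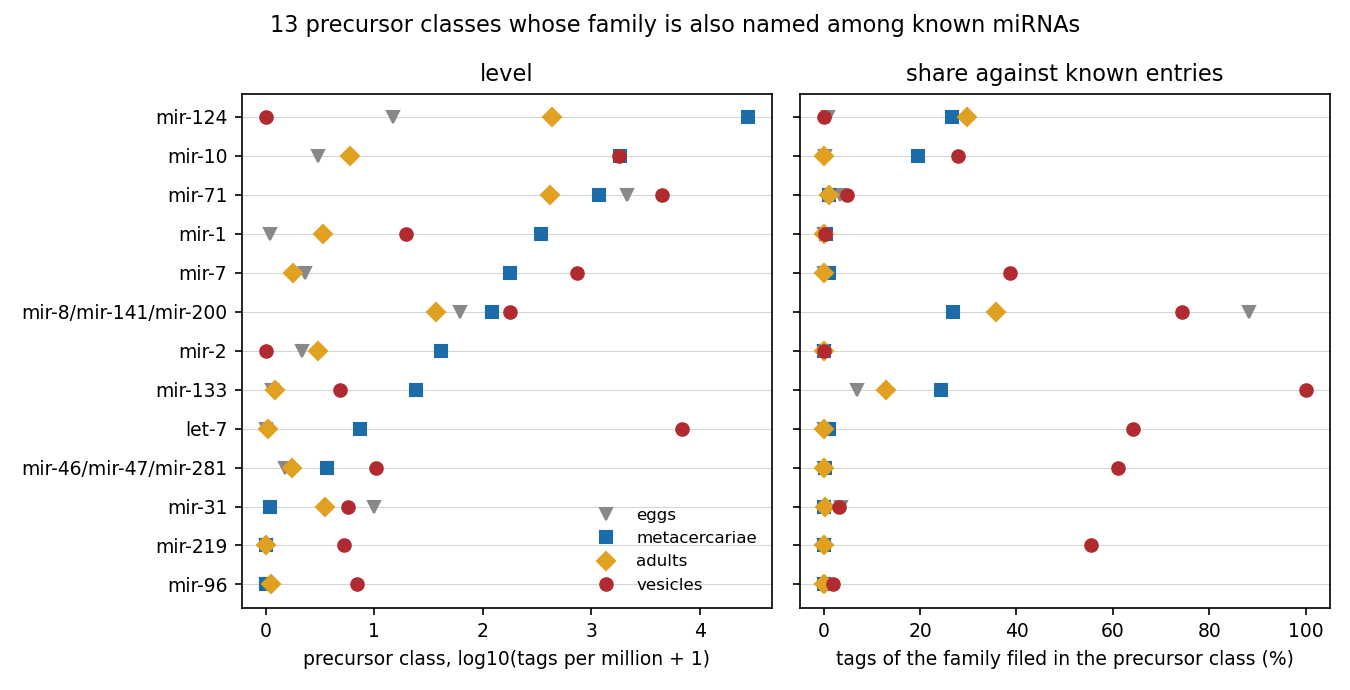
The 13 precursor classes whose family is also named among known miRNAs, with the level of the class as log10 of tags per 1000000 plus 1 on the left and the share of the family's tags filed in the class, in percent, on the right, for 1 library per group. The let-7 class reached 64.2% in vesicles, while mir-124 reached 26.7% in metacercariae and 29.8% in adults.

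The largest class of the other animal families was mir-9/mir-79, a neural family in vertebrates. It held 813 tags in eggs, 5405 in metacercariae, 2239 in adult worms and 10343 in vesicles, or 39.6, 264, 115 and 4380 CPM. Vesicles were 38.0-fold above adults (36.3 to 39.8), and eggs were 6.67-fold below metacercariae (6.19 to 7.18), a difference that did not pass the rule when scaled to miRNA tags. mir-92 held 86, 276, 41 and 3624 tags and was 726-fold higher in vesicles than in adults (534 to 1014). Several classes were high in metacercariae. mir-184, expressed in the germline and nervous system of flies, held 14, 1593, 14 and 83 tags and was 108-fold above adults (64.0 to 198). mir-33, which lies in introns of lipid regulator genes, held 10, 347, 8 and 4 tags. mir-449, a family of ciliated cells in vertebrates, held 0, 583, 0 and 1 tags. In metacercariae it was at least 184-fold above adults by the floor, with an exact lower limit of 149. mir-276, known from insects, held 1, 116, 2 and 0 tags. lin-4, the Rfam family that takes in miR-125, held 1, 14, 0 and 223 tags, while the known miR-125c-5p entry held 1, 17, 37 and 5. mir-183 and mir-182, encoded beside mir-96 in vertebrates, held 313 and 295 tags in vesicles and at most 11 in a stage.

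Vertebrate families were higher in vesicles than in any stage. They reached 139 CPM in eggs (134 to 144), 122 in metacercariae (117 to 127), 86.3 in adult worms (82.2 to 90.6) and 9186 in vesicles (9065 to 9309). The vesicle level was 106-fold that of adults (101 to 112), 153-fold when scaled to miRNA tags and 13.9-fold when scaled to Rfam tags. This was not particular to the group. Other animal families were also highest in vesicles, at 52.25-fold the CPM of adults, and shared families were 15.53-fold above adults there. Of the 67 vertebrate families, 64 were listed in vesicles, 31 of them in no stage, and 63 had their highest level there. Of the 31, 11 held at least 10 tags. In the other groups, 1 of 13 shared, 5 of 26 other animal and 3 of 17 plant families were listed in vesicles alone. The highest level lay in vesicles for 7, 14 and 7 families of these groups. The vesicle list was also the longer one over all entries, as given above. For families of a few tags the order is set by depth, since 1 tag is 0.423 CPM in vesicles and 0.0487 to 0.0515 CPM in a stage. mir-122, the main miRNA of hepatocytes, held 3, 7, 43 and 5577 tags in eggs, metacercariae, adults and vesicles, or 0.146, 0.342, 2.22 and 2362 CPM. Adults were above the other stages, and vesicles were 1066-fold above adults (790 to 1474).

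Lists of families known from host tissues were drawn across the groups. The liver list also holds mir-8, described above, with mir-22 and mir-29 of the other animal families. The list of other vertebrate tissues holds mir-375 of the other animal families. Of the 12 families on the list for liver and bile duct, 11 were listed in vesicles, 8 in eggs, 10 in metacercariae and 8 in adults. Their summed level was 146 CPM in eggs, 157 in metacercariae, 71.0 in adult worms and 5392 in vesicles. Of these tags mir-8 alone held 1251 of 2996 in eggs, 2486 of 3210 in metacercariae, 703 of 1378 in adults and 421 of 12731 in vesicles. mir-30 held 107, 17, 33 and 2561 tags and mir-26 held 460, 373, 187 and 1949. mir-21, abundant in many vertebrate tissues, held 0, 13, 0 and 1464 tags, and vesicles were at least 4010-fold above adults. The class of mir-192 and mir-215, of gut and liver epithelium, held 0, 1, 1 and 173 tags. mir-194, encoded beside mir-192 and mir-215 in vertebrates, ran differently. It held 403, 109, 61 and 22 tags, or 19.6, 5.32, 3.14 and 9.32 CPM, and was 6.24-fold higher in eggs than in adults (4.76 to 8.31). mir-101 held 246 tags in vesicles and 0 in each stage. mir-27 held 735, 172, 335 and 293 tags, mir-29 held 34, 31, 15 and 24, mir-22 held 3, 1, 0 and 0, and the class joining mir-148 and mir-152 held 1 tag, in vesicles. mir-27 was 7.19-fold higher in vesicles than in adults and mir-23, with 480, 98, 202 and 182 tags, 7.40-fold, but both directions reversed when scaled to Rfam tags.

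Of the 10 blood cell families, 9 were listed in vesicles, 5 in eggs, 5 in metacercariae and 4 in adults, at 1228, 23.0, 76.2 and 33.0 CPM. The red blood cell families behaved differently from each other. mir-486 held 1082 tags in vesicles and 0 in each stage, at least 2964-fold above adults. mir-451 was listed in every library with 326, 1303, 539 and 792 tags, or 15.9, 63.6, 27.8 and 335 CPM. mir-144, encoded beside mir-451 in vertebrates, had 1 tag in vesicles and 0 in each stage. mir-451 made up 11.4% of vertebrate tags in eggs (10.3 to 12.6), 52.2% in metacercariae (50.3 to 54.2), 32.2% in adult worms (29.9 to 34.5) and 3.65% in vesicles (3.41 to 3.91). For mir-122 these shares were 0.105%, 0.281%, 2.57% and 25.7%. The white blood cell families mir-223 and mir-155 held 85 and 212 tags in vesicles and at most 6 in a stage, and mir-142 held 1 tag in vesicles. mir-181 held 82, 160, 48 and 392 tags, mir-17 held 3, 0, 0 and 242, mir-16 held 59, 92, 53 and 92, and mir-150 was unlisted.

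On the list of other vertebrate tissues 7 of 9 families were listed, all 7 of them in vesicles, at 6.28, 2.15, 1.80 and 582 CPM. mir-126, of blood vessel endothelium, held 2, 20, 5 and 705 tags. mir-143, of smooth muscle, held 3, 2, 0 and 341, and mir-199, of connective tissue cells, held 1, 0, 0 and 232, while mir-145, encoded beside mir-143, was unlisted. mir-375, of hormone-secreting cells and in the other animal group, held 122, 10, 29 and 58 of the list's 129, 44, 35 and 1374 tags. It thus supplied most of the list's level in eggs and adults. mir-203 of skin held 0, 1, 0 and 23 tags, mir-204 1, 6, 1 and 9, and mir-205 0, 5, 0 and 6. mir-208 was unlisted. Outside the lists, mir-146, induced in innate immune responses, held 3, 39, 1 and 1720 tags and was 14135-fold above adults (2534 to 558629), on 1 adult tag. mir-128, a brain family, held 0, 3, 1 and 1062, mir-221 held 33, 14, 17 and 875, mir-378 0, 0, 0 and 356, and mir-320 0, 0, 0 and 196. The part that host cells have in the vesicle values was not tested, since a family entry does not name a species.

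**Figure D3:**
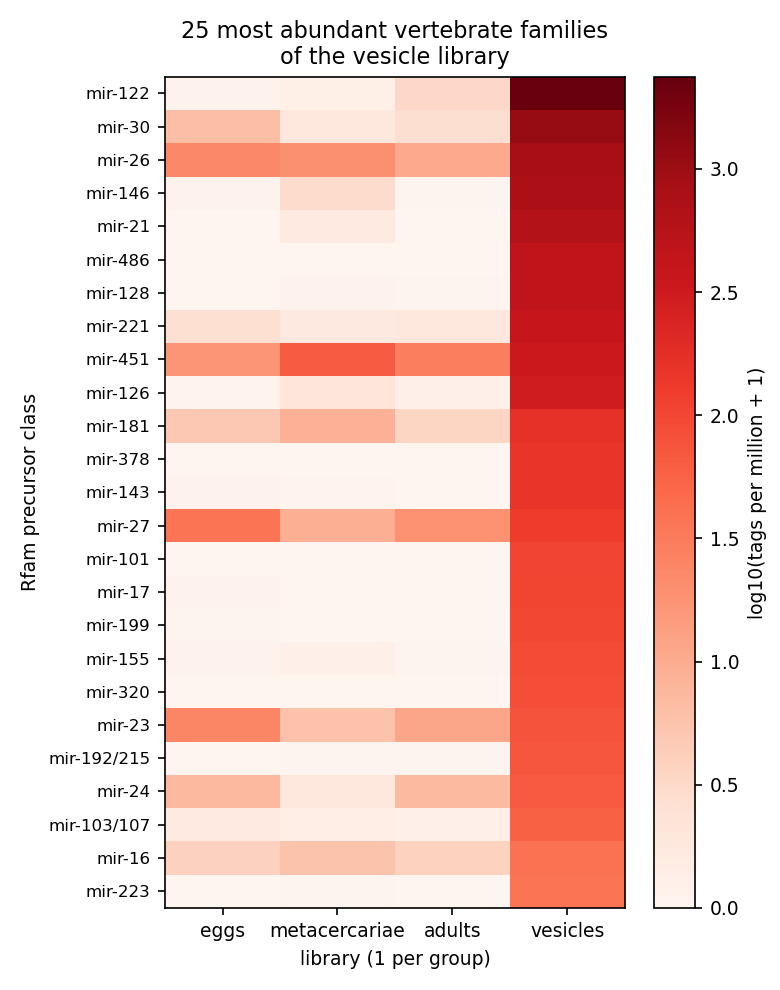
Levels of the 25 vertebrate families with the most tags in the vesicle library, as log10 of tags per 1000000 plus 1 by colour, with 1 column per library. mir-122, at 2362 CPM in vesicles, stood above the other families, while mir-26, mir-27 and mir-451 had colour in every library.

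Plant families ran differently, with eggs highest when the families were summed. Their summed level was 977 CPM in eggs (964 to 991), 4.15 in metacercariae (3.31 to 5.13), 82.0 in adult worms (78.0 to 86.1) and 36.0 in vesicles (28.7 to 44.5). Eggs were 11.9-fold above adults (11.3 to 12.5) and 236-fold above metacercariae (190 to 295). By family, 8 of the 17 had their highest level in eggs, 7 in vesicles and 2 in adults. Those highest in vesicles held fewer than 10 tags in every library. mir-166 (RF00075), which controls leaf polarity genes in plants, held 11948 tags in eggs, 50 in metacercariae, 985 in adult worms and 33 in vesicles. MIR168, which targets a plant Argonaute, held 3932, 1, 257 and 1 tags. MIR159, which targets MYB factors, held 3240, 23, 230 and 33. MIR167_1, which targets auxin response factors, held 665, 3, 61 and 1 tags, mir-393, which targets auxin receptors, 142, 2, 9 and 0, and MIR164 86, 2, 1 and 0.

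mir-166, MIR168, MIR159 and MIR167_1 were 11.5-fold (10.7 to 12.2), 14.5-fold (12.7 to 16.5), 13.3-fold (11.6 to 15.3) and 10.3-fold (7.92 to 13.6) higher in eggs than in adults. These ratios lay close together, although the intervals of mir-166 and MIR168 did not overlap. Some other plant ratios of eggs to adults were higher, at 81.2 (14.2 to 3246) for MIR164, 22.7 for MIR398 and 21.7 for MIR169_2, on 1 adult tag each. The most abundant plant families made up similar shares of plant tags in both libraries. mir-166 held 59.5% of plant tags in eggs and 61.9% in adults, MIR168 19.6% and 16.1%, MIR159 16.1% and 14.5%, and MIR167_1 3.31% and 3.83%. In metacercariae and vesicles plant tags numbered 85 each, and there mir-166 held 58.8% and 38.8%. MIR171_1 ran the other way, with 34 tags in adults and 4 in eggs, or 2.14% and 0.02% of plant tags. Of the 21 families on the plant list 17 were listed, 11 in eggs, 8 in metacercariae, 12 in adult worms and 11 in vesicles. The source of these tags was not tested.

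**Figure D4:**
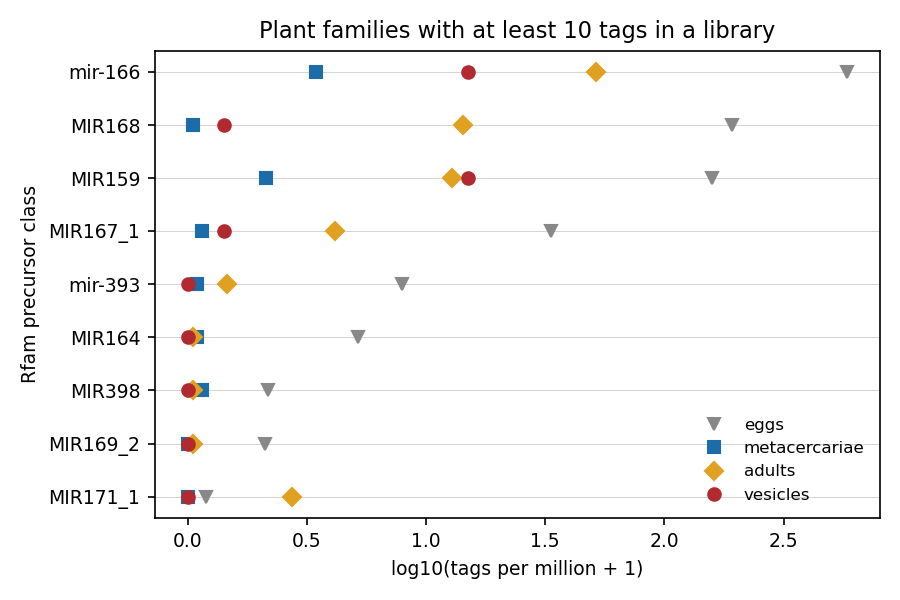
Levels of the 9 plant families with at least 10 tags in a library, as log10 of tags per 1000000 plus 1, with 1 point per library. Eggs lay highest in 8 of the 9 families, with mir-166 at 582 CPM, and adults were highest in MIR171_1.

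Counted over the 4 comparisons, eggs differed from adults in few classes. Of 68 classes listed in either library 8 were higher and 1 lower in eggs, beside a background of 5.15% of 272 entries higher and 3.68% lower. 6 of the 8 were plant families, and the others were mir-71 and mir-194, while the lower class was mir-124. The median log2 ratio of the classes was 0.09 and that of all entries 0.07. Scaled to miRNA tags 10 were higher and 4 lower, and scaled to Rfam tags 9 and 5, but with the pseudocount held these were 8 and 1, and 7 and 1. mir-71 lost its call when scaled to Rfam tags.

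In metacercariae 12 of 79 classes were higher and 3 lower than in adults, beside a background of 9.89% and 4.95% of 283 entries. The higher classes were 7 of 12 shared families, namely mir-124, mir-10, mir-1, mir-7, mir-133, mir-2 and let-7, and 5 of 21 other animal families. Of these, mir-2 lost its call when scaled to Rfam tags and mir-92 under either scaling. The 3 lower ones were the plant families mir-166, MIR168 and MIR159, and 0 of 34 vertebrate families were called either way. That 0 depends on the scaling. Scaled to miRNA tags 1 vertebrate family was higher and 5 were lower, and scaled to Rfam tags 0 and 7. With the pseudocount held these were 0 and 3, and 0 and 4. The median log2 ratio was 0.13 against 0.07 for all entries. The split became 15 higher and 12 lower when scaled to miRNA tags and 10 and 14 when scaled to Rfam tags, or 11 and 8, and 7 and 10, with the pseudocount held. The summed vertebrate level, 1.41-fold that of adults, had a ratio of 0.621 when scaled to miRNA tags and 0.230 when scaled to Rfam tags.

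Between eggs and metacercariae 9 of 78 classes were higher and 12 lower in eggs, beside 7.48% and 10.9% of 294 entries. Of 21 other animal families 5 were lower and 1, mir-375, higher, and of 34 vertebrate families 1, mir-23, was higher and 0 lower. Of 11 shared families 7 were lower in eggs and 1, mir-31, higher, while of 12 plant families 6 were higher and 0 lower. Among classes with over 3 tags in both libraries, mir-124 was 2020-fold lower in eggs (1798 to 2278) and mir-10 was 907-fold lower (671 to 1258). MIR168 was 3922-fold higher (704 to 154962), with 1 tag in metacercariae. The median log2 ratio was -0.07 for the classes and -0.07 for all entries. Scaled to miRNA tags 15 were higher and 13 lower, and scaled to Rfam tags 21 and 13, or 13 and 11, and 15 and 9, with the pseudocount held. The call of mir-9/mir-79 was lost under either scaling.

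In vesicles 57 of 114 classes were higher and 2 lower than in adults, beside a background of 30.04% of 496 entries higher and 6.65% lower, so that a large share of all Rfam entries and known miRNAs was higher there too. The higher classes were 38 of 65 vertebrate, 10 of 19 other animal and 9 of 13 shared families, and 0 of 17 plant families. The lower ones were mir-124 and MIR168. Among the higher shared classes, known entries of let-7, mir-71 and mir-1 had ratios of 7.11, 2.29 and 1.40. Known entries of the others, mir-7, mir-10, mir-96, mir-8, mir-219 and mir-46/mir-47/mir-281, had ratios of 0.942 or less. A higher class thus does not stand for a higher family. By list, 9 of 11 liver and bile duct families, 7 of 9 blood cell families and 5 of 7 families of other tissues were higher, with 8 of 11 bilaterian families higher and 1 lower. The median log2 ratio was 2.23 for the classes and 1.18 for all entries. Scaled to miRNA tags 58 were higher and 2 lower, and scaled to Rfam tags 44 and 9, or 57 and 2, and 39 and 7, with the pseudocount held. The classes that did not pass when scaled to Rfam tags included mir-1, mir-71, mir-451, mir-16, mir-24, mir-29, mir-96 and mir-375.

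The bilaterian list holds 14 families, of which 11 have a class. Apart from mir-9/mir-79 these are shared families, so the counts below repeat calls given above and are no separate result. The list was chosen with earlier results of these data known. It summed to 2232 CPM in eggs, 31741 in metacercariae, 1017 in adult worms and 18411 in vesicles. In metacercariae 7 of 10 listed members were higher and 0 lower than in adults, beside 9.89% and 4.95% of all entries, and mir-2 was 1 of the 7. In eggs 1 was higher and 1 lower of 10, beside 5.15% and 3.68%. Against metacercariae 0 were higher and 8 lower of 10 in eggs, beside 7.48% and 10.9%, and mir-9/mir-79 was 1 of the 8.

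**Figure D5:**
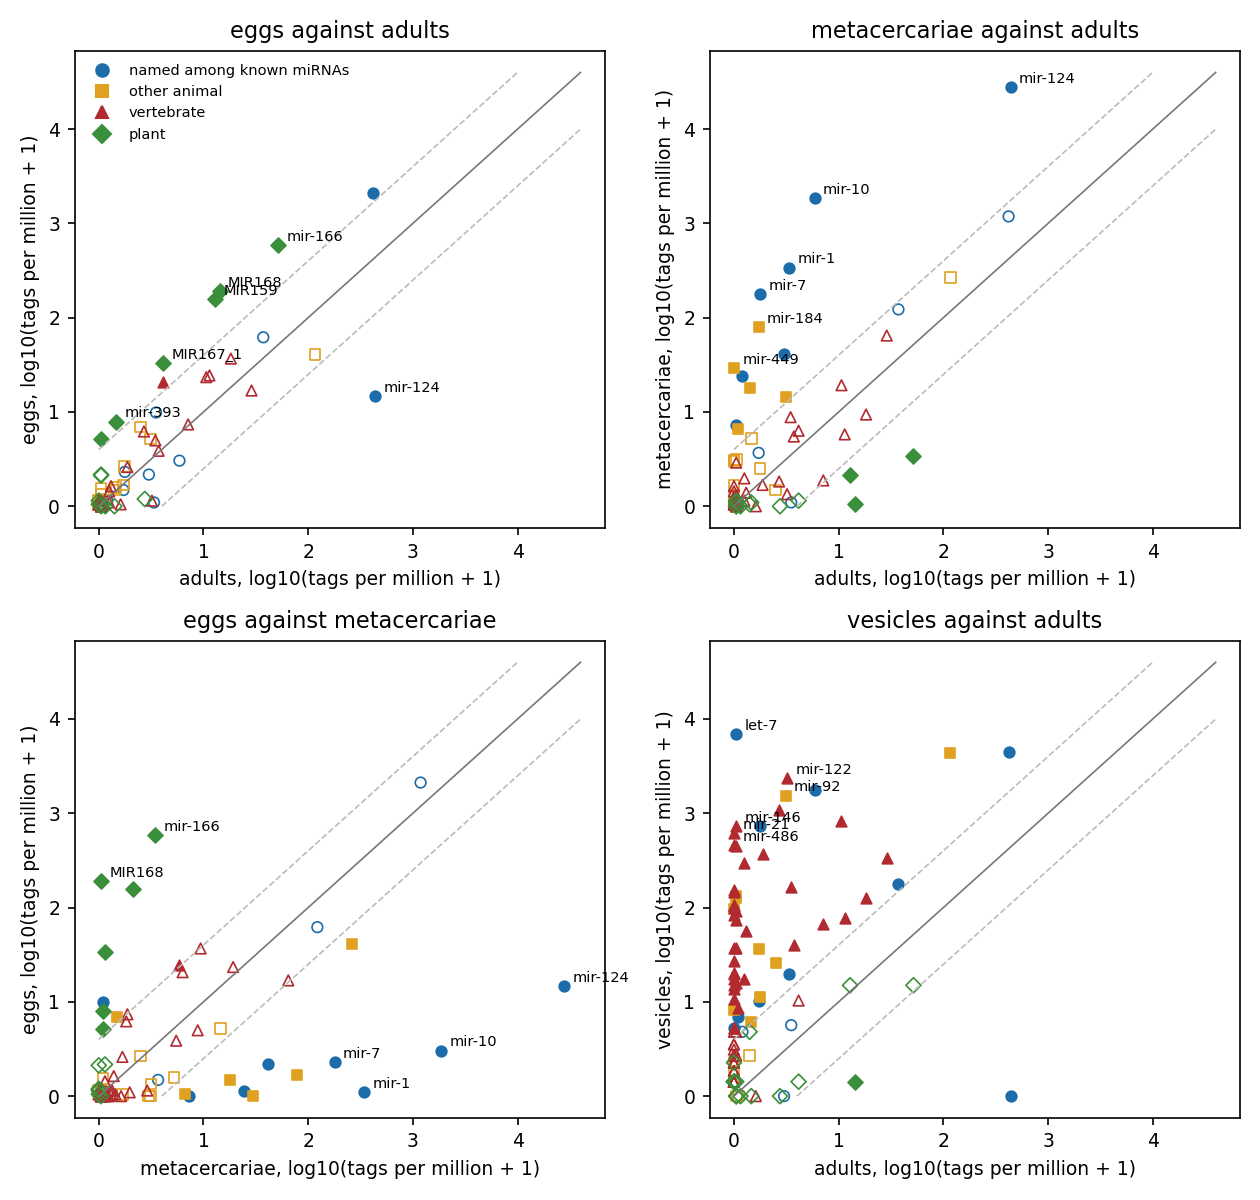
Levels of the precursor classes in each pair of libraries as log10 of tags per 1000000 plus 1, with filled symbols for classes called by the rule of size, a solid line at equal level and dashed lines at 4-fold. Called plant families lie above the line in eggs, shared families such as mir-124 and mir-10 in metacercariae, and 57 classes of the 3 animal groups in vesicles.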

How the data were processed

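Small RNA was sequenced from eggs, metacercariae, adult worms and vesicles of adults, 1 library each. Per the labels' protocols, RNA was extracted with Trizol. The authors deposited raw tag counts per entry with the library total in the file header. The aligner, the Rfam release, the match settings and the order in which classes were assigned were not given in the sources used here, and that order decides whether a tag counts as known miRNA or precursor. Counts were divided by the header total (CPM). Poisson, Clopper-Pearson and conditional binomial intervals were exact at 95%, and a count of 0 was given a floor of 3 tags. The rule of size used 4-fold, a pseudocount of 1 CPM, 10 tags and an interval beyond 2-fold, and its code was tested on simulated data (Poisson counts with known changes). The expected number of classes at a smaller depth is the hypergeometric expectation. Named classes were the 5 most abundant per library, the 5 largest ratios each way, the shared families and listed families with at least 10 tags. Other classes were added after their values were seen. Members and lists were chosen with earlier results of these data known. Alternatives were scaling to miRNA tags or to Rfam tags without rRNA, pseudocounts of 0.1 and 5 CPM, no minimum or one of 30 tags and 8-fold. 1 column of counts of another species was not used. Python 3.11.15, numpy 2.4.6, scipy 1.17.1, pandas 2.3.3 and matplotlib 3.10.9 were used.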

Additional observations from a re-analysis of the deposited data

Results flagged for a closer look

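In the vesicle library 847968 of 3083550 clean tags did not map to the authors' reference scaffolds, and 744284 of these carried no annotation. The remaining 103684 tags carried an annotation without a match to the scaffolds, a signal in counts that the comparisons do not use. In that library precursor classes held 69958 tags, known miRNAs 286031 and the other Rfam entries 67259. Which of these hold the 103684 tags is not given per class, and such a count of the stage libraries was not analysed here.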

How the results depend on the processing

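With 1 library per group, no interval covers variation between samples, and depth limits classes of a few tags. No paired analysis was possible because each group has 1 library and the labels carry no replicate numbers. Scaling to miRNA tags multiplied each ratio by 0.87 for eggs against adults, 0.44 for metacercariae against adults, 1.98 for eggs against metacercariae and 1.44 for vesicles against adults, and scaling to Rfam tags by 0.79, 0.163, 4.85 and 0.13. With the pseudocount held, the median log2 ratio of all entries, many of which hold few tags, moved by -0.00451, -0.13, 0.12 and 0.15 under the first and by -0.00745, -0.24, 0.22 and -0.80 under the second. The counts and log2 ratios below keep a pseudocount of 1 on the new scale, where it weighs less, so they change both choices at once. With it held, an alternative chosen after seeing the data, the counts were 9 and 8, 19 and 17, 24 and 24, and 59 and 46 for miRNA and Rfam scaling in the order above. Precursor tags are part of the Rfam tags, at 69271 of 137112 in eggs, 656225 of 663652 in metacercariae, 23185 of 102365 in adults and 69958 of 95660 in vesicles. In metacercariae that scaling is set almost wholly by them, mainly by mir-124 with 568259 tags. Calls lost or reversed under it are therefore no independent check of the classes. Of the called ratios, 102 kept their call and 2 lost it when scaled to miRNA tags. Scaled to Rfam tags 87 kept it, 14 lost it and 3 reversed, which were mir-8 (log2 -0.64), mir-23 (-0.0527) and mir-27 (-0.10) in vesicles against adults. Why these moved was not tested. Called classes for eggs against adults numbered 9, and 14 when scaled to miRNA tags, 14 to Rfam tags, 14 with a pseudocount of 0.1 CPM and 5 at 8-fold. For metacercariae against adults they numbered 15, and 27, 24 and 28 under the first 3 of these. For eggs against metacercariae they numbered 21, and 34 when scaled to Rfam tags, 35 with a pseudocount of 0.1 CPM and 13 with 5 CPM. For vesicles against adults the 59 calls stayed between 44 and 61. Classes with at least 10 tags numbered 35 for eggs, 38 for metacercariae, 31 for adults and 61 for vesicles, and at vesicle depth metacercariae were expected to list 45.7 and adults 37.5. Without the most abundant class the summed level was 1259, 4293, 758 and 22766 CPM in eggs, metacercariae, adults and vesicles, and per 1000000 miRNA tags it was 15963, 76665, 6500 and 231646. Without that class the share in shared families was 7.05%, 87.3%, 61.8% and 31.6%. Counting related family numbers raised the vesicle share to 48.6%.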
